A study of Mus musculus with 4 samples.

Results

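Transcripts of 10 genes of the fibroblast growth factor (FGF) pathway were followed in the stroma of the embryonic mouse intestine: the ligands *Fgf7*, *Fgf9* and *Fgf10*, the receptors *Fgfr1*, *Fgfr2* and *Fgfr3*, the feedback inhibitors *Spry1*, *Spry2* and *Spry4*, and *Etv5*, a transcription factor induced by FGF signalling. They were taken by name from the 28692 genes listed in the files, and all 10 were present. Single-cell RNA sequencing had been performed on untreated E12.5 embryos of mice labelled EYFP (C57BL/6), in 2 libraries of the small intestine (SI) and 2 of the large intestine with the cecum (LI). Each region was dissected in 2 independent experiments that pooled several embryos, so a library stands for a pool and not for 1 animal. The sort took live cells with β1 integrin and yellow fluorescent protein (YFP) and without CD45 (leukocytes), Ter119 (erythroid cells), CD31 (endothelium) or EpCAM (epithelium). The study's methods describe EYFP mice as a cross of a ROSA26 reporter strain with Cre mice, and which Cre these embryos carried was not given in the sources used here. The design asks how transcription differs between the regions before birth and between the cell groups of the stroma.

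FGFs are secreted proteins that bind receptor tyrosine kinases together with heparan sulfate chains and switch on the Ras-ERK cascade. In the developing gut, *Fgf9* is known as a ligand of epithelium and mesothelium that acts on mesenchyme, whereas *Fgf7* and *Fgf10* are mesenchymal ligands that act mainly on the epithelial form of FGFR2. *Fgf10* is known to be needed for the growth of the cecum and for a normal colon. ERK activity induces ETS factors such as ETV5 and the Sprouty proteins, which in turn dampen the cascade.

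The libraries held 5151 to 6881 cell barcodes and 31630548 to 62886525 unique molecular identifiers (UMIs, each one captured transcript). The median depth of kept cells was 4220.5 UMIs in LI replicate 1, the shallowest library, against 8382 to 8829 in the others. Pairs of libraries shared 8 to 15 of their barcodes. After filtering 22094 cells remained, and pairs shared 5 to 11. Clustering without the genes described here gave 11 clusters. Cluster 5 (1314 cells, led by *Upk3b*, *Krt19* and *Krt7*) was mesothelial-like, clusters 7 and 9 (1246 cells, led by *Foxd3* and *Sox10* or by *Cartpt* and *Stmn2*) were neural-like, and cluster 1 (4953 cells, led by *Myh11* and *Cnn1*) was smooth muscle cell (SMC)-like. Clusters 0 and 2 (9328 cells, 42.2% of those kept) are called other mesenchyme. No marker of another type was among their leading genes and fibroblast (FB) markers were read in them, but the FB list did not set them apart: it summed to 1226, 1884, 1433 and 1717 CPM there, to 1350, 2257, 1634 and 2012 CPM in the SMC-like cluster, to 1606 to 3717 CPM in the mesothelial-like one and to 28.6 to 72.6 CPM in neural-like cells. Cluster 0 was led by *Igfbp5* and *Scx* and cluster 2 by histone genes. Another 5253 cells in clusters 3, 4, 6, 8 and 10 met no naming rule and are given by number where needed. Cluster 10 held 180 cells, 161 of them from LI replicate 2, and is left out of the values by cluster.

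Levels are given as CPM, the share of a gene among the UMIs summed over a cell group in a library scaled to 1000000 UMIs, always in the order LI replicates 1 and 2, then SI replicates 1 and 2. Fold changes come from edgeR's quasi-likelihood test on these sums, on the log2 scale with their standard error (SE), and a gene was called at a Benjamini-Hochberg adjusted p under 0.05 over all genes tested. With 2 libraries a region, p-values measure the spread between these pools. The plot of levels by cell group shows all 10 genes.

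**Figure D1:**
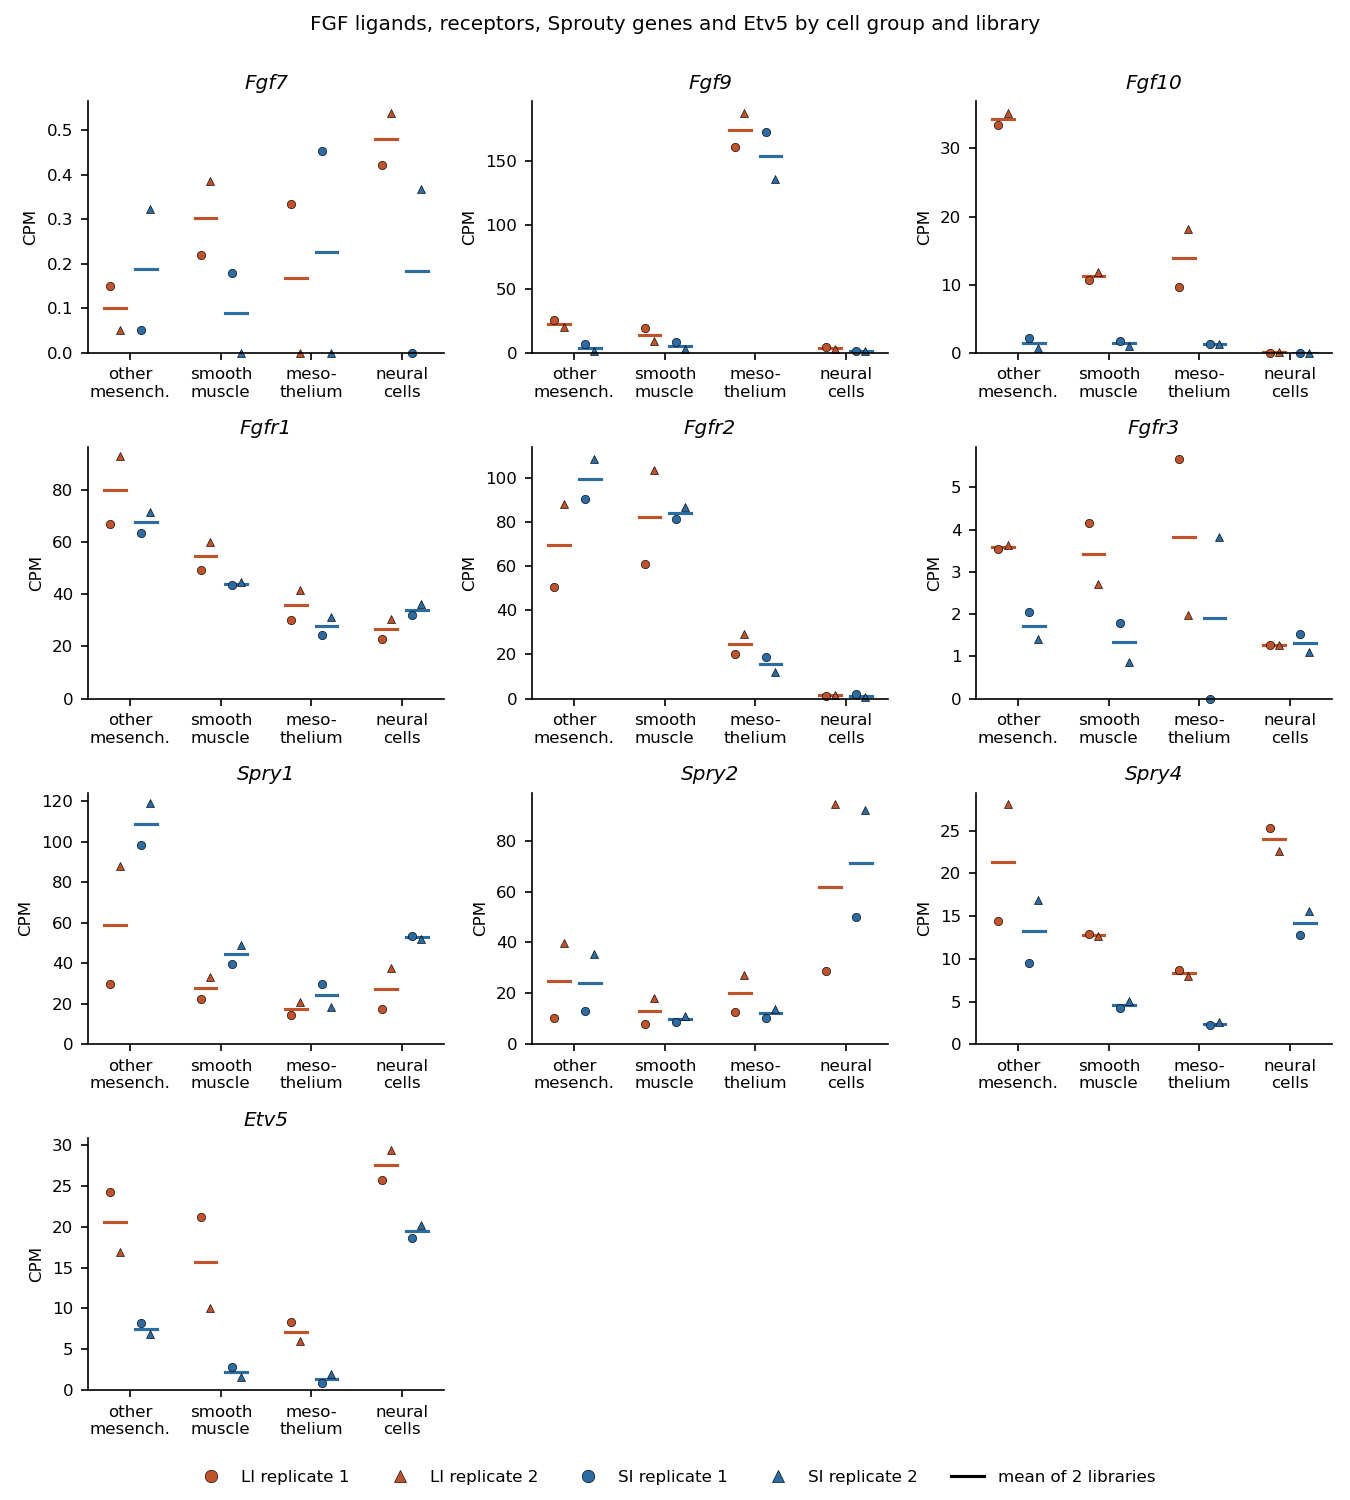
Level of each gene in CPM (vertical axes, each starting at 0) in 4 cell groups, with a point for each of the 2 LI and 2 SI libraries and a line at their mean. *Fgf10* stood above 9 CPM in both LI libraries and under 2.5 CPM in both SI libraries of other mesenchyme, smooth muscle and mesothelium, while *Fgf9* was at 136 CPM or more in mesothelium of every library.

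*Fgf10* was higher in LI than in SI in other mesenchyme, smooth muscle and mesothelium. In other mesenchyme its level was 33.4 and 35.2 CPM in LI against 2.19 and 0.647 CPM in SI (443, 699, 43 and 12 UMIs). Both LI libraries stood far above both SI libraries, and the LI replicates were close to each other. The SI over LI change was -4.42 on the log2 scale (SE 0.41, adjusted p = 0.000329), and it ran from -5.58 to -3.79 when each library was left out in turn. In smooth muscle *Fgf10* was at 10.7 and 11.8 CPM in LI and at 1.79 and 1.06 CPM in SI, a log2 change of -2.88 (SE 0.35, adjusted p = 0.00788). When only G1-scored cells were summed, this change was -1.85 and was not called (adjusted p = 0.167). In mesothelium *Fgf10* was at 9.68 and 18.2 CPM in LI and at 1.36 and 1.27 CPM in SI, with only 3 and 2 UMIs behind the SI values. The log2 change there was -3.27 (SE 0.58, adjusted p = 0.016). Neural-like cells held 1 *Fgf10* UMI in LI replicate 2 and none in the other libraries, and the gene was not tested there.

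The share of cells with an *Fgf10* UMI gave the same order. After each cell was thinned to 3000 UMIs, 8.14% and 9.72% of other mesenchyme cells of the LI libraries held one, against 0.835% and 0.34% in SI. Unthinned, the shares were 11.6%, 22.1%, 1.79% and 0.526%. Thinned neural-like cells held none in 1220, which allows a share of cells with a UMI of up to 0.246% at this depth (counting error only), at a median depth of 11107.5 to 19853 UMIs before thinning against 4000.5 to 9360 UMIs in other mesenchyme. The exact permutation test of LI against SI gave p = 0.333, the smallest that 2 against 2 libraries allow.

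*Fgf10* was higher in LI in each of clusters 0 and 2 and the unnamed clusters 3 and 4 (with *Rgs5*, a pericyte marker, and *Epcam* among their leading genes) when these were tested alone (log2 change -4.58, -4.09, -1.71 and -4.09, with SEs of 0.41, 0.38, 0.32 and 0.46). The largest cluster, 0, had 40.2 and 36.7 CPM in LI and 2.37 and 0.611 CPM in SI. In cluster 3, led by *Bmp3* and *Col14a1*, the SI libraries kept 7.85 and 4.47 CPM beside 21.2 and 22.3 CPM in LI. Cluster 6, led by *Wnt4* and *Anxa2*, was the exception, since its libraries overlapped at 0.678, 6.38, 5.29 and 0.296 CPM and the gene did not pass the filter on low counts there. Cluster 0 made up 35.6% and 34.5% of the LI cells and 21.1% and 23.1% of the SI cells, and with equal numbers of cells of clusters 0 and 2 in every library the *Fgf10* change was -4.17 (adjusted p = 0.00033).

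*Pitx1*, a homeobox gene, was read in part of these LI cells. In LI replicate 1, cells of other mesenchyme with a *Pitx1* UMI held *Fgf10* at 75.8 CPM and the remaining cells at 18.8 CPM. The corresponding levels were 72.1 and 20.1 CPM in LI replicate 2. Both LI libraries thus held more *Fgf10* in the cells with *Pitx1*, at a median depth of 3726 against 4131 UMIs per cell in LI replicate 1 and 8366 against 8537.5 UMIs in LI replicate 2, and the SI levels lay below those of the cells without it. *Fgf9* had the same order (44.4 against 18.7 CPM in LI replicate 1 and 43.4 against 10.1 CPM in LI replicate 2). So did *Etv5* (31.7 against 21.6 and 21.9 against 14.8 CPM), *Fgfr1*, *Fgfr3*, *Spry2* and *Spry4*. *Fgfr2* was lower in the cells with *Pitx1* in both LI libraries, and the order of *Spry1* and *Fgf7* differed between the libraries. No test was made of this split, which was chosen from the cells' own reads.

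*Fgf9* was the mesothelial ligand. Mesothelium held 161, 188, 172 and 136 CPM, and after thinning 34.3%, 31.1%, 38.0% and 32.7% of its cells had a *Fgf9* UMI. The LI and SI libraries overlapped, and the SI over LI log2 change was -0.12 (SE 0.20, adjusted p = 0.912). In other mesenchyme the gene was lower and split by region, at 25.3 and 19.8 CPM in LI against 6.94 and 1.29 CPM in SI. This was a log2 change of -2.28 (SE 0.54, adjusted p = 0.0476), which ran from -3.98 without SI replicate 1 to -1.53 without SI replicate 2. The call was close to the threshold. It was lost in 6 of 18 alternatives, among them equal numbers of cells per cluster (adjusted p = 0.0561) and the DESeq2 Wald test (adjusted p = 0.297), and the adjusted p ran from 6.64e-20 to 0.297. In smooth muscle *Fgf9* was at 19.05, 9.27, 8.04 and 2.56 CPM, which was not called (log2 change -1.29, SE 0.54, adjusted p = 0.407). Neural-like cells held 4.65, 2.69, 1.30 and 1.65 CPM, most of it in cluster 9, led by neuronal genes, at 16.1, 12.48, 3.92 and 4.52 CPM. Thinned neural-like cells had a *Fgf9* UMI in 0% to 2.36% of cells, and the share of 0.485% in other mesenchyme of SI replicate 2 lay within that range.

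Mesothelial transcripts in the other mesenchyme were compared with its *Fgf9*. The level of *Fgf9* in other mesenchyme of the LI libraries was 15.7% and 10.6% of its mesothelial level. For the mesothelial marker *Upk3b* these shares were 0.471% and 0.0891%, and for *Podxl* 2.92% and 1.66%. In the SI libraries *Fgf9* was at 4.03% and 0.953%, *Upk3b* at 0.113% and 0.0795% and *Podxl* at 0.828% and 0.317%. The levels of *Podxl* (6.42, 4.33, 1.89 and 0.862 CPM) ordered the libraries as those of *Fgf9* did. *Upk3b* and *Podxl* were picked from the list after values were seen. The 14 listed mesothelial markers together were at 159 and 99.7 CPM in LI and at 90.6 and 134 CPM in SI other mesenchyme, with *Muc16* at 0.226 CPM or less. These sums were 6.45%, 3.62%, 3.37% and 4.80% of the mesothelial ones, below the share of *Fgf9* in LI replicates 1 and 2 and SI replicate 1 and above it in SI replicate 2. Single markers with a larger share than *Fgf9* numbered 3 and 4 in LI and 4 and 6 in SI, with *Krt18* and *Aldh1a1* among them in every library. The part of mesothelial transcripts in the *Fgf9* of other mesenchyme was not tested.

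*Fgf7* was hardly read. It had 24 UMIs over the 4 groups, 10 of them in other mesenchyme and at most 6 in any library and group, and no group passed the filter on low counts. No statement on its regions or cell groups can be made at this depth.

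The promoters of the members that were called between the regions are shown because these members were higher in LI together. RefSeq promoter entries (GRCm38.p6, 250 bases before to 50 after a transcript start, read along the gene) were found for 8 of the 10 genes, in 10 entries. *Fgf10* (ENSMUSG00000021732) lies on the plus strand of chromosome 13, 118669791 to 118792115, *Fgf9* (ENSMUSG00000021974) on the plus strand of chromosome 14, 58070547 to 58112720, and *Etv5* (ENSMUSG00000013089) on the minus strand of chromosome 16, 22381309 to 22439719. The windows are chr13:118714449-118714748 for *Fgf10*, chr14:58072436-58072735 for *Fgf9* and chr16:22438319-22438618 for *Etv5*. Capitals mark the letters GGAAG, a core that ETS factors bind, on either strand.
Fgf10: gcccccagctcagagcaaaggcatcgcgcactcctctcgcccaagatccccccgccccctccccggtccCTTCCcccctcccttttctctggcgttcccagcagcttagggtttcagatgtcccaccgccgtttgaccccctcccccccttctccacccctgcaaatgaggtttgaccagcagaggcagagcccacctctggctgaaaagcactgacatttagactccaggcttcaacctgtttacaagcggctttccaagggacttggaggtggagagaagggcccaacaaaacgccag
Fgf9: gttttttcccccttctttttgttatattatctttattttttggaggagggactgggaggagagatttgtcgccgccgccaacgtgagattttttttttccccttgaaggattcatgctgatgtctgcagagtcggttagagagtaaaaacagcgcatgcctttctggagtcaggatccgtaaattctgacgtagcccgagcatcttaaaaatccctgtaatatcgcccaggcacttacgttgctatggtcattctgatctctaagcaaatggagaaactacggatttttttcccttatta
Etv5: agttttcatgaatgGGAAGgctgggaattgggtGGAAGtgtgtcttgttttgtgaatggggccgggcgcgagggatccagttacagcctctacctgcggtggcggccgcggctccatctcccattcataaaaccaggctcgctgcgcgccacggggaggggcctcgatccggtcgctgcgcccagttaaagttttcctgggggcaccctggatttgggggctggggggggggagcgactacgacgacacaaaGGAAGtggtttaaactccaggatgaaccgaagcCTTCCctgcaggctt
The window of *Fgf10* held 1 match, that of *Fgf9* none and this window of *Etv5* 4, while a second start of *Etv5* at chr16:22439521-22439820 held none. Of 32851 promoters of the same length 71.4% held GGAAG, so a match is common. The longer CCGGAAG was in 8.86% of all promoters and in none of the 10 entries read for these genes.

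edgeR called no receptor between the regions in any group (9 tests, 3 at an unadjusted p under 0.05), and neither did the DESeq2 Wald test. Over all genes edgeR called 4.48% in other mesenchyme, 1.34% in smooth muscle, 1.22% in mesothelium and 0.31% in neural-like cells, so a call was rare. *Fgfr1* in other mesenchyme was at 67.0 and 92.9 CPM in LI and at 63.4 and 71.5 CPM in SI, and the libraries of the regions overlapped. Its log2 change lay between -0.31 in mesothelium and 0.27 in neural-like cells. *Fgfr2* in other mesenchyme was at 50.7, 88.6, 90.4 and 109 CPM, so that LI replicate 1 stood apart from the other libraries. Its log2 change there was 0.68 (SE 0.24, adjusted p = 0.177), and it was called without LI replicate 2 (1.10, adjusted p = 1.28e-05), when LI replicate 1 alone stood for LI. *Fgfr3* was low, at 3.55, 3.63, 2.04 and 1.40 CPM in other mesenchyme and at 4.16, 2.70, 1.79 and 0.874 CPM in smooth muscle. Its log2 changes of -0.90 (SE 0.33, adjusted p = 0.187) and -1.23 (SE 0.49, adjusted p = 0.378) were not called, whereas in cluster 3 tested alone it was called (-1.88, SE 0.41, adjusted p = 0.0364). *Fgfr2* shares exon bases with *Ctbp2* on the same strand, and *Ctbp2* was at 145 and 138 CPM in LI and at 96.2 and 82.3 CPM in SI other mesenchyme.

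*Etv5* was higher in LI in other mesenchyme and smooth muscle. Its level in other mesenchyme was 24.2 and 16.9 CPM in LI against 8.22 and 6.84 CPM in SI, a log2 change of -1.29 (SE 0.25, adjusted p = 0.0197). The regions did not overlap, and the call was lost without SI replicate 2 (-1.15, adjusted p = 0.0703) and with the unnamed clusters included (-1.17, adjusted p = 0.0749). Among single clusters it held in clusters 0 and 2 and not in clusters 3, 4 and 6 (adjusted p = 0.28, 0.41 and 0.999). In smooth muscle *Etv5* was at 21.2 and 10.0 CPM in LI and at 2.77 and 1.62 CPM in SI, and the log2 change was -2.69 (SE 0.44, adjusted p = 0.0298), a call that was lost at resolution 0.5 of the clustering (-2.26, adjusted p = 0.0772) and in G1-scored cells. Smooth muscle markers summed to 2126 and 6879 CPM in LI and to 5947 and 12482 CPM in SI smooth muscle. Their part in this difference was not tested. In mesothelium *Etv5* was at 8.35, 5.95, 0.905 and 1.91 CPM, with 2 and 3 UMIs in SI. Its log2 change of -2.34 (SE 0.63, adjusted p = 0.122) was not called. Neural-like cells held 25.8, 29.4, 18.7 and 20.2 CPM (log2 change -0.58, SE 0.22, adjusted p = 0.468). By cluster, the regions overlapped in cluster 3.

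**Figure D2:**
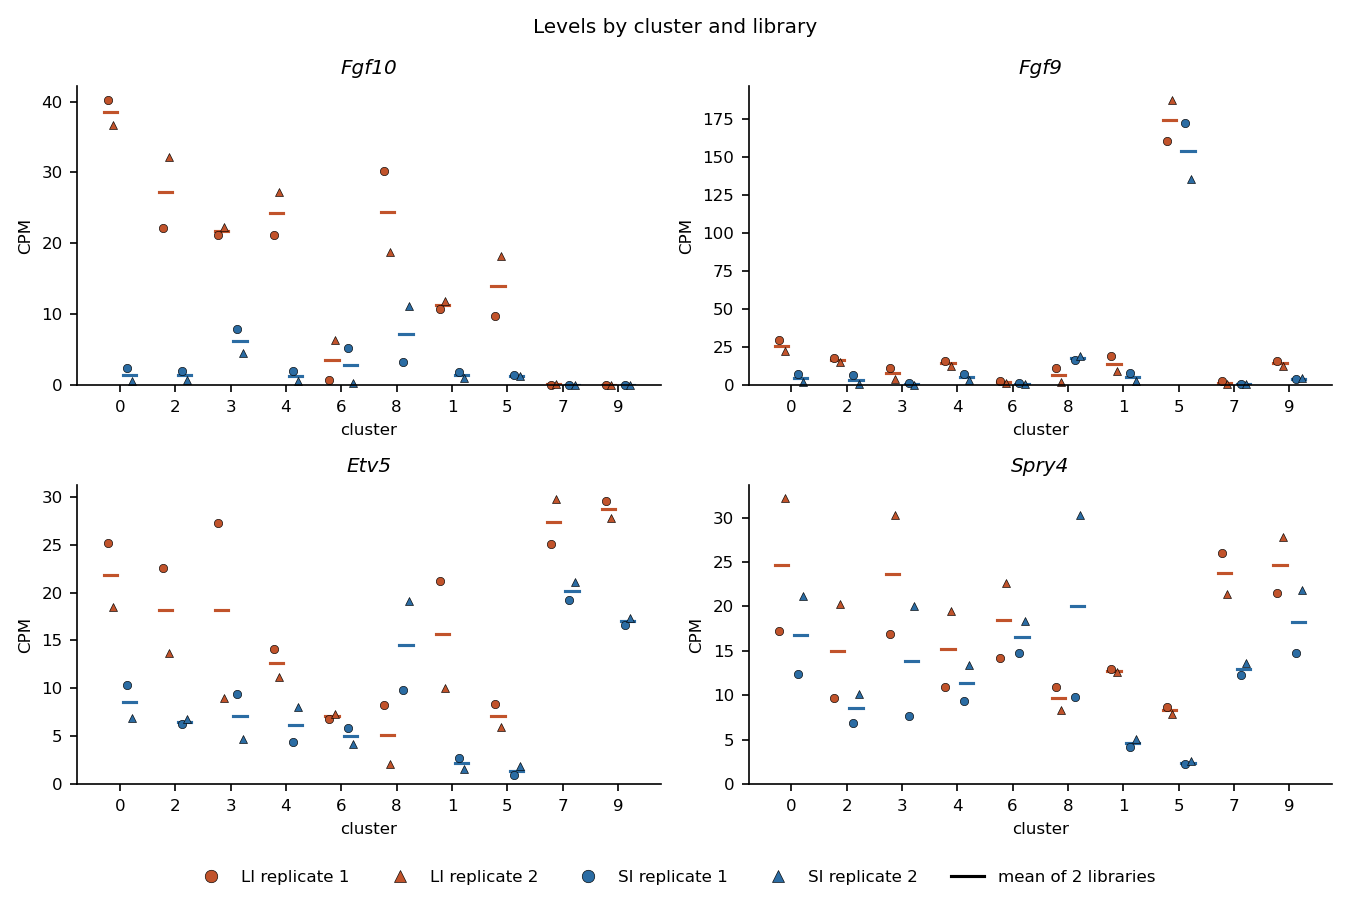
Levels of *Fgf10*, *Fgf9*, *Etv5* and *Spry4* in CPM (vertical axes, from 0) in single clusters, with a point per library and a line at the mean of the 2 libraries of a region. Clusters 0, 2, 3, 4, 6 and 8 are mesenchyme or unnamed, 1 is SMC-like, 5 mesothelial-like, and 7 and 9 neural-like, and *Fgf10* was at 0 in both neural-like clusters of all libraries but LI replicate 2.

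None of the Sprouty genes was called between the regions in the 4 groups by edgeR or by the DESeq2 Wald test, although 6 of 12 tests had an unadjusted p under 0.05. Over all genes edgeR called 0.31% to 4.48% in these groups. *Spry4* came nearest, in smooth muscle, with 12.9 and 12.6 CPM in LI against 4.20 and 5.06 CPM in SI (log2 change -1.32, SE 0.26, adjusted p = 0.0569). In mesothelium it was at 8.68 and 7.93 CPM in the LI and 2.26 and 2.55 CPM in the SI libraries (log2 change -1.73, SE 0.51, adjusted p = 0.17), on 5 and 4 UMIs in SI. In other mesenchyme its libraries overlapped at 14.4, 28.2, 9.49 and 16.9 CPM (log2 change -0.54, SE 0.34, adjusted p = 0.447). *Spry1* had the opposite sign. It was at 29.8 and 87.7 CPM in LI and at 98.5 and 119 CPM in SI other mesenchyme, a log2 change of 1.05 (SE 0.38, adjusted p = 0.179), and its log2 change lay between 0.55 and 0.82 in the other groups. In other mesenchyme it was 0.49 without LI replicate 1 and 1.99 without LI replicate 2 (adjusted p = 0.173 and 1.38e-15), and *Spry4* was called there without LI replicate 1 (-0.92, adjusted p = 0.00183). *Spry1* was also called in other mesenchyme when only G1-scored cells were summed (1.49, adjusted p = 0.0462), and in cluster 3 tested alone (2.03, SE 0.38, adjusted p = 0.0187). LI replicate 1 held the lowest *Spry1* level of the 4 libraries in all 4 groups. *Spry2* differed more within the regions than between them in other mesenchyme. Other mesenchyme held it at 10.4 and 39.6 CPM in LI and 13.1 and 35.4 CPM in SI libraries (log2 change 0.10, SE 0.55, adjusted p = 0.947), and in each of the 4 groups the replicate 2 library of a region stood above its replicate 1.

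Counted over the list, 9 of the 10 genes were tested in other mesenchyme and 3 were called (*Fgf9*, *Fgf10* and *Etv5*), all higher in LI, where 4.48% of 13453 genes were called in either direction and 3.17% as higher in LI. The median log2 change of the 9 was -0.54 and that of all genes tested 0.00432. In smooth muscle 2 of 9 were called, both higher in LI, beside 1.34% of 12275 genes in either direction and 1.01% as higher in LI. The median was -1.23 against 0.00672 for all genes. In mesothelium *Fgf10* was the 1 call of 8 tested, beside 1.22% of 10650 genes in either direction and 0.685% as higher in LI. In neural-like cells edgeR called none of 6 tested, beside 0.31% of 11283 genes, with 4 at an unadjusted p under 0.05, and the DESeq2 Wald test called 0. LI replicate 1, the shallowest library, alone stood for LI in the fits without LI replicate 2. Without it 6 members were called in other mesenchyme, 5 in smooth muscle, 2 in mesothelium and 3 in neural-like cells, while the calls over all genes rose from 603 to 2262, 165 to 1286, 130 to 979 and 35 to 1473. When only G1-scored cells were summed, none was called in smooth muscle, where *Fgf10* had a log2 change of -1.85 (adjusted p = 0.167) and *Etv5* of -2.22 (adjusted p = 0.144).

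**Figure D3:**
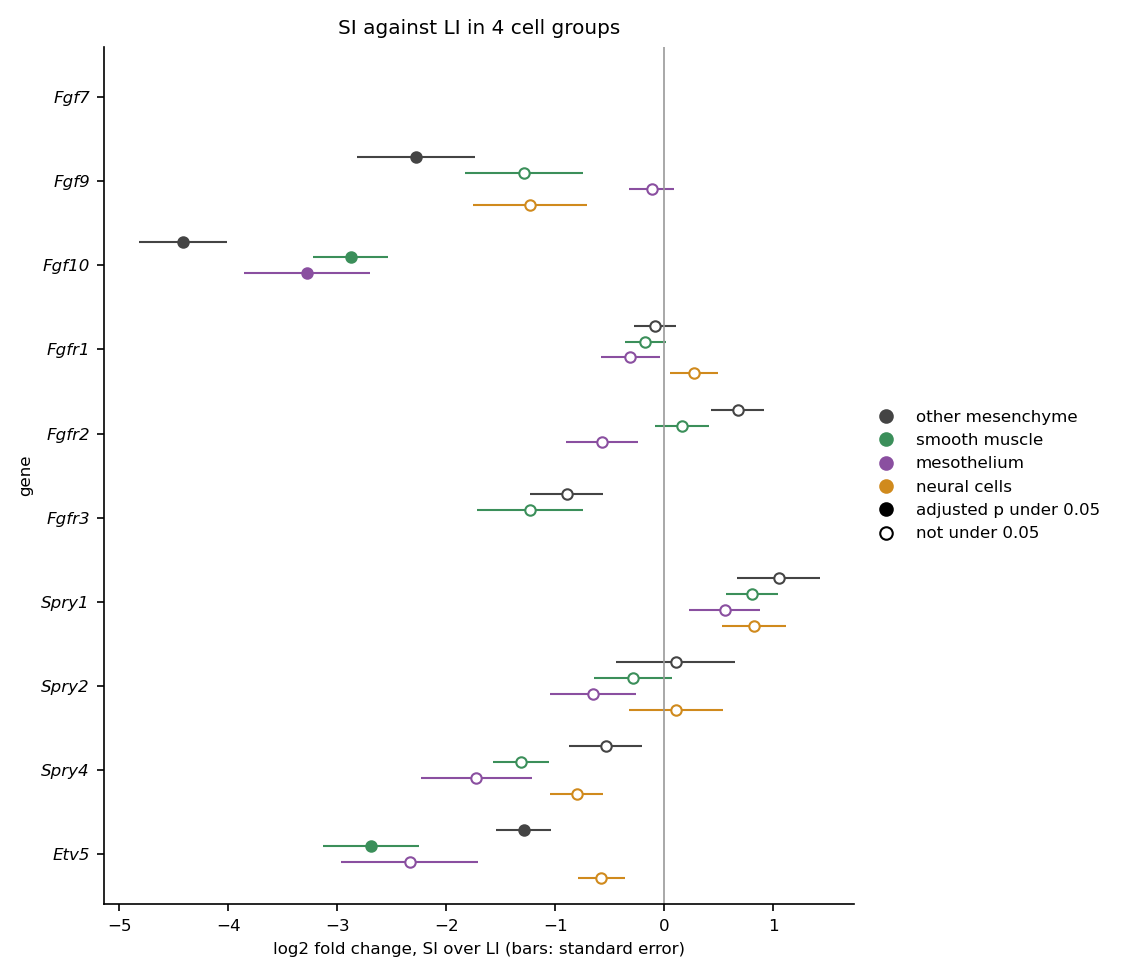
Log2 fold change of SI over LI for each gene tested (horizontal axis, bars show the SE), coloured by cell group and filled where the adjusted p was under 0.05. The 6 filled points all lie left of 0, between -4.42 and -1.29, and *Spry1* lies right of 0 in all 4 groups.

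Levels of other listed transcripts in the same sums are given beside these results. The 10 listed genes of the dissociation response, which cells switch on while tissue is digested, summed to 6400 and 7655 CPM in LI and to 4114 and 5900 CPM in SI other mesenchyme. In smooth muscle they were at 5566 and 6098 CPM in LI and at 3428 and 3636 CPM in SI, and in mesothelium at 9522 and 10451 CPM against 4408 and 5680 CPM. In neural-like cells the sums were 2096, 2286, 2459 and 3336 CPM, lower in LI. The epithelium list was at 13.2 and 16.2 CPM in LI and at 6.89 and 7.17 CPM in SI other mesenchyme, most of it *Epcam* (11.8, 14.3, 5.61 and 5.39 CPM), with *Cdh1* and *Cldn4* at 0.201 CPM or less and *Shh* at 0 in every library. The gastric list was at 45.4 and 55.0 CPM in LI and at 27.2 and 27.0 CPM in SI. Smooth muscle and neural markers had the other order in other mesenchyme, at 979, 1460, 1641 and 2542 CPM and at 30.5, 51.3, 79.8 and 103 CPM, as did pericyte markers at 28.7, 44.0, 44.8 and 71.7 CPM. Splenopancreatic markers were at 346 and 256 CPM in LI and 254 and 205 CPM in SI. No dissociation gene was called between the regions by edgeR outside mesothelium, and no test was made of the marker lists. The part of these transcripts in the differences between the regions was not tested.

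Between the cell groups, mesothelium stood apart by its ligand. *Fgf9* was higher in mesothelium than in other mesenchyme by 4.02 on the log2 scale (SE 0.39, adjusted p = 2.16e-06), and the change ran from 3.52 to 4.47 when each library was left out. The receptors *Fgfr1* and *Fgfr2* were lower there, with log2 changes of -1.18 (SE 0.11, adjusted p = 9.07e-07) and -1.95 (SE 0.21, adjusted p = 4.78e-06). *Fgfr2* was at 20.03, 29.3, 19 and 12.1 CPM in mesothelium, below every library of other mesenchyme. *Spry1*, *Spry4* and *Etv5* were also lower, with log2 changes of -1.86 (SE 0.19), -1.63 (SE 0.29) and -1.69 (SE 0.44). The fit without library as a block lost the *Etv5* call (-1.547, adjusted p = 0.1345). *Fgf10* was lower as well (-1.03, SE 0.32, adjusted p = 0.0185), a call that 5 of 13 alternatives lost. Of 9 members tested 7 were called, 1 higher and 6 lower, beside 40.1% of all 12452 genes. *Fgfr3* and *Spry2* were not called.

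Neural-like cells held few *Fgfr2* or *Fgf10* UMIs. *Fgfr2* was at 1.27, 1.62, 1.95 and 0.551 CPM, a log2 change of -5.99 from other mesenchyme (SE 0.30, adjusted p = 4.57e-10). Other mesenchyme held 1197 *Fgf10* UMIs and neural-like cells 1, a ratio of levels of 302 with a 95% counting interval of 54.2 to 11951. *Fgfr1* was read in neural-like cells at 22.8, 30.3, 31.9 and 36.2 CPM, lower than in other mesenchyme (log2 change -1.20, SE 0.10, adjusted p = 8.26e-08). *Spry2* and *Etv5* were higher in neural-like cells, by 1.55 (SE 0.17, adjusted p = 1.73e-06) and 1.02 (SE 0.29, adjusted p = 0.00712) on the log2 scale. The fit without library as a block lost the *Etv5* call (0.833, adjusted p = 0.265). *Spry2* in neural-like cells was at 28.7, 94.6, 50.1 and 92.1 CPM, above other mesenchyme of the same library in all 4. *Spry1* was lower (-0.98, SE 0.16, adjusted p = 0.000105), *Fgf9* was lower (-2.14, SE 0.65, adjusted p = 0.0105, a call lost without LI replicate 2 at -1.82 and adjusted p = 0.0933 and in G1-scored cells at -1.33 and adjusted p = 0.0909), and *Spry4* was not called (0.20, SE 0.21, adjusted p = 0.409). Of 9 members tested 7 were called, 2 higher and 5 lower, beside 59.1% of all genes, so that a call between these groups was common. Median depth per cell was also higher in neural-like cells, as given above for *Fgf10*.

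Smooth muscle differed less from other mesenchyme. *Spry1* was at 22.6, 33.1, 39.7 and 49.0 CPM in smooth muscle, below other mesenchyme of the same library in all 4 (log2 change -1.12, SE 0.15, adjusted p = 0.000354). *Spry2* (-0.996, SE 0.18, adjusted p = 0.00294), *Spry4* (-1.07, SE 0.21, adjusted p = 0.00439), *Fgfr1* (-0.55, SE 0.09, adjusted p = 0.0011) and *Fgf10* (-1.07, SE 0.27, adjusted p = 0.0221) were lower too. *Fgfr2*, at 61.3, 104, 81.4 and 87.2 CPM, was not called (0.02, SE 0.16, adjusted p = 0.969), and neither were *Fgf9*, *Fgfr3* and *Etv5*. The 5 calls of 9 tested stand beside 9.37% of all genes. Without LI replicate 2 only *Fgfr1* and *Spry1* were called, without SI replicate 1 also *Spry2*, and a fit without library as a block called none. *Fgf10* was also lost without LI replicate 1 (-0.77, adjusted p = 0.157) and by the DESeq2 Wald test (adjusted p = 0.288), and *Spry4* without SI replicate 2 (-0.83, adjusted p = 0.0516). The smooth muscle markers of this group summed to 2126 CPM in LI replicate 1 against 5947 to 12482 CPM in the other libraries.

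**Figure D4:**
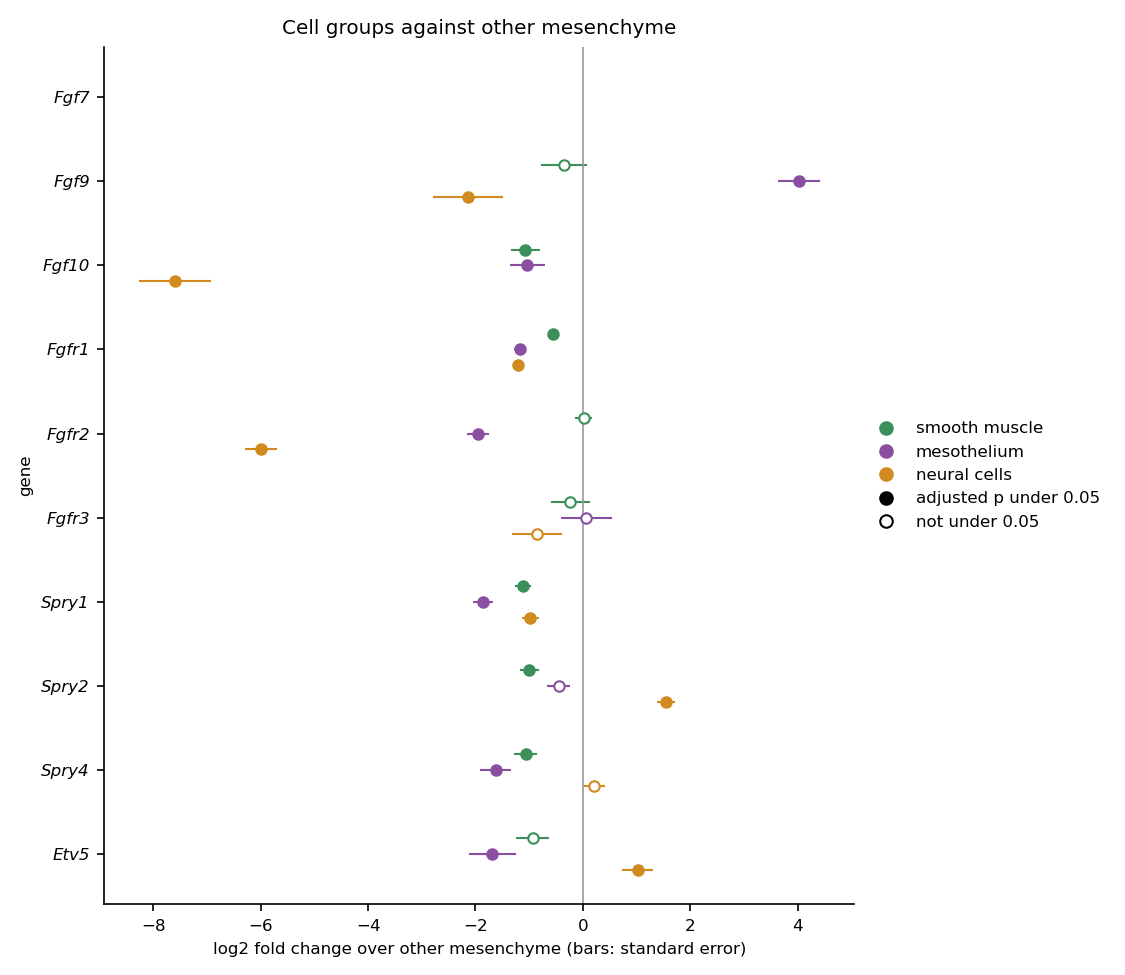
Log2 fold change of smooth muscle, mesothelium and neural-like cells over other mesenchyme for each gene tested (horizontal axis, bars show the SE), filled where the adjusted p was under 0.05. *Fgf9* in mesothelium lies at 4.02, *Fgfr2* in neural-like cells at -5.99, and *Fgf10* in neural-like cells rests on 1 UMI.

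Whether the region differences themselves varied between the groups was tested as an interaction in the fit over all 16 sums. *Fgf9* differed: its SI over LI log2 change was 2.27 higher in mesothelium than in other mesenchyme (SE 0.39, adjusted p = 0.00578). For *Fgfr2* the same difference was -1.19 (SE 0.28, adjusted p = 0.034). These 2 calls of 9 members stand beside 2.27% of all genes. The DESeq2 Wald test kept the call of *Fgf9* and lost that of *Fgfr2*. Leaving out LI replicate 1 or SI replicate 2 ended both, with *Fgf9* at 2.00 (adjusted p = 0.0626) and 1.62 (adjusted p = 0.0593), and leaving out LI replicate 2 ended that of *Fgfr2*. For *Fgf10* the interaction was 1.66 in smooth muscle (SE 0.40, adjusted p = 0.1) and 1.09 in mesothelium (SE 0.81, adjusted p = 0.572). No member was called in the interaction of smooth muscle, where 5 had an unadjusted p under 0.05 and 0.522% of all genes were called. None was called in that of neural-like cells, where 2 had an unadjusted p under 0.05 and 13.1% of all genes were called. The DESeq2 Wald test called 0 members in either. Dissociation genes were called in the same interactions. In that of mesothelium 3 of 10 were, with *Hspa1a* at -1.34 (SE 0.20, adjusted p = 0.00217), *Jun* at -0.41 (SE 0.09, adjusted p = 0.0266) and *Fos* at -0.76 (SE 0.19, adjusted p = 0.0491), and the median of the list was -0.69. In that of neural-like cells 6 of 10 were, all positive, among them *Jun* (0.83), *Ier2* (0.96) and *Fos* (1.25), with a list median of 0.89. Their part in the interactions of the members was not tested.

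The other genes of the pathway were counted by list. Of 12 listed feedback and ETS genes, all tested in other mesenchyme, 3 were called and all were higher in LI, beside 4.48% of all genes in either direction and 3.17% as higher in LI. *Flrt2* was at 34.2 and 47.3 CPM in the LI libraries and at 6.48 and 10.9 CPM in SI, a log2 change of -2.07 (SE 0.27, adjusted p = 0.00268). *Flrt3* was at 104, 91.4, 35.7 and 37.6 CPM (log2 change -1.26, SE 0.18, adjusted p = 0.00403), and *Spred3* at 12.8, 12.6, 5.10 and 5.34 CPM (log2 change -1.13, SE 0.22, adjusted p = 0.0185). FLRT proteins are membrane partners of FGF receptors, and SPRED3 is a relative of the Sproutys that restrains Ras-ERK. The median of the list was -0.54. In smooth muscle 1 of 11 tested was called, *Flrt2* (-1.60, SE 0.23, adjusted p = 0.0181), beside 1.34% of all genes. In mesothelium and neural-like cells edgeR called none of this list, with 5 of 10 and 4 of 11 at an unadjusted p under 0.05, and the DESeq2 Wald test called 0 and 1. Against other mesenchyme 3 of 11 tested were called in smooth muscle, all lower (beside 9.37% of all genes). Mesothelium had 5 of 11 called, 1 higher and 4 lower (beside 40.1% of all genes). Neural-like cells had 9 of 11 called, 6 higher and 3 lower (beside 59.1% of all genes). *Etv1*, another ETS factor, was lower in mesothelium (-2.83, SE 0.28, adjusted p = 2.74e-06). *Dusp4*, an ERK phosphatase, was lower in smooth muscle (-0.63, SE 0.14, adjusted p = 0.00847), and *Flrt3* in neural-like cells (-2.13, SE 0.19, adjusted p = 2.68e-07). *Etv4*, the close relative of *Etv5*, was at 25.8, 14.8, 9.14 and 4.74 CPM in other mesenchyme and at 22.8, 4.76, 0.982 and 0.312 CPM in smooth muscle, and its region change was larger in smooth muscle by the interaction (-2.69, SE 0.49, adjusted p = 0.0187). The interaction also called *Flrt2*, whose region change was 1.83 higher in mesothelium (SE 0.20, adjusted p = 0.00013) and 3.08 higher in neural-like cells (SE 0.27, adjusted p = 6.1e-06). *Dusp5*, also an ERK phosphatase, and *Spred3* were called in that of neural-like cells as well (1.60, SE 0.23, adjusted p = 0.000344, and 1.25, SE 0.23, adjusted p = 0.00184), where 13.1% of all genes were called.

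**Figure D5:**
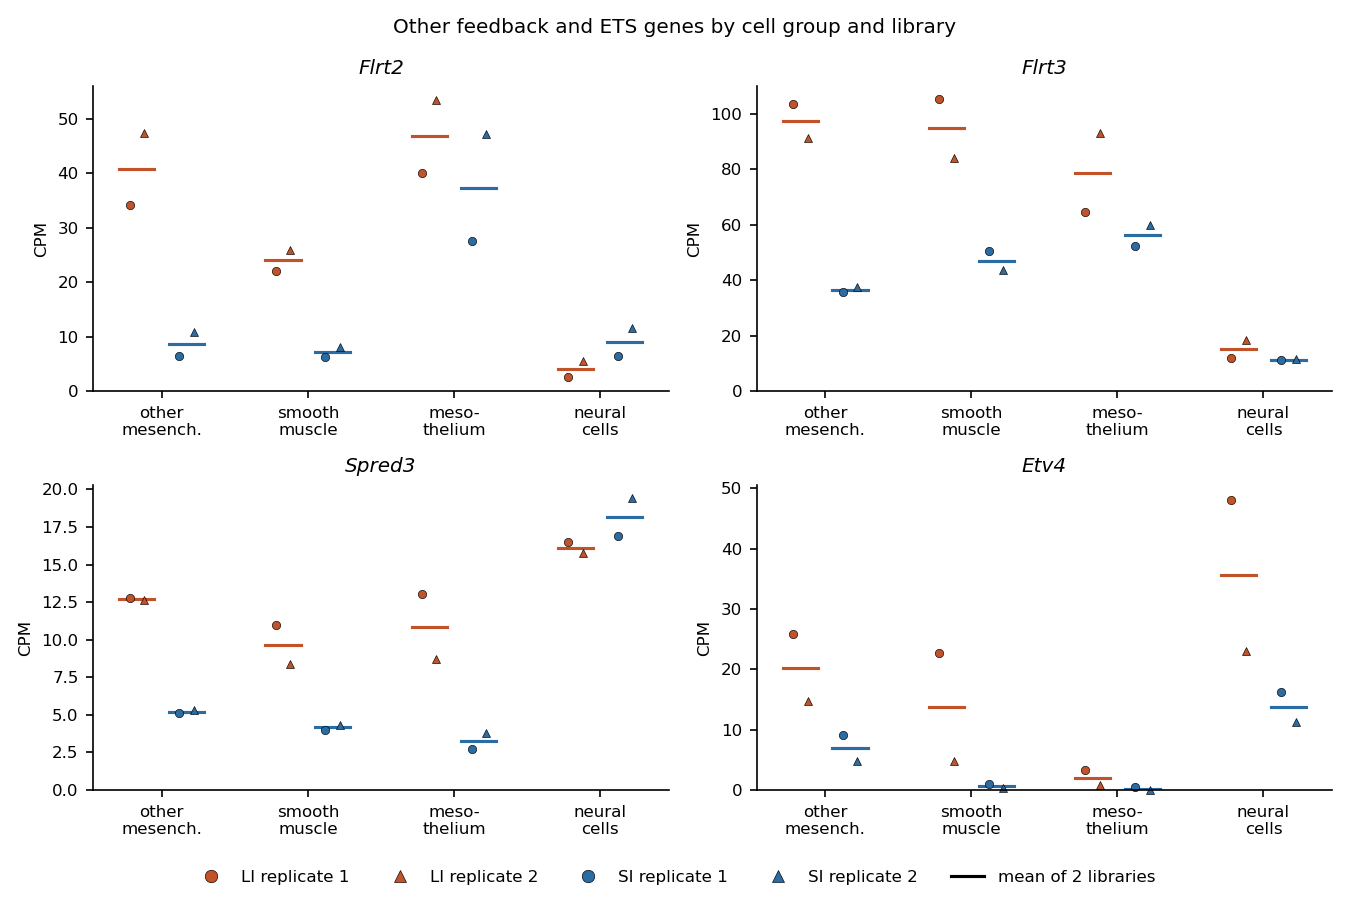
Levels of *Flrt2*, *Flrt3*, *Spred3* and *Etv4* in CPM (vertical axes, from 0) in 4 cell groups, with a point per library and a line at the mean of the 2 libraries of a region. In other mesenchyme both LI libraries lie above both SI libraries for all 4 genes, and in neural-like cells *Flrt2* lies between 2.53 and 11.6 CPM.

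Of 13 heparan sulfate genes *Sulf2*, an extracellular sulfatase that trims the chains FGFs bind, was the 1 called in other mesenchyme (beside 4.48% of all genes), at 50.6, 68.2, 101 and 132 CPM (log2 change 1.13, SE 0.20, adjusted p = 0.0137). Against other mesenchyme, smooth muscle had 4 of the 13 lower (9.37% of all genes were called), namely *Hs6st2*, a sulfotransferase (-1.13, SE 0.15, adjusted p = 0.000219), *Ext1*, which builds the chains (-0.48, SE 0.09, adjusted p = 0.00397), *Sulf1* (-1.82, SE 0.37, adjusted p = 0.00529) and *Sulf2* (-0.56, SE 0.11, adjusted p = 0.00627). Mesothelium had 5 higher and 3 lower, beside 40.1% of all genes called, with *Hs6st2* (1.23, SE 0.14, adjusted p = 1.23e-05) and *Sulf1* (2.44, SE 0.30, adjusted p = 2.28e-05) among the higher ones beside *Gpc3*, *Hs6st1* and *Ext2*, and with *Sdc1*, *Sulf2* and *Hs2st1* lower. Neural-like cells had 10 lower and none higher, beside the 59.1% of all genes called there, among them the proteoglycans *Sdc2* (-3.02, SE 0.14, adjusted p = 2.23e-10), *Gpc3* (-2.86, SE 0.23, adjusted p = 6.47e-08) and *Gpc6* (-1.66, SE 0.15, adjusted p = 2.31e-07). The region change of *Sulf1* was 1.74 higher in mesothelium than in other mesenchyme by the interaction (SE 0.35, adjusted p = 0.0157, beside 2.27% of all genes), and the DESeq2 Wald test did not call it. In the interaction of neural-like cells, where 13.1% of all genes were called, *Gpc3* (-1.18, SE 0.23, adjusted p = 0.00272), *Sulf2* (-0.53, SE 0.15, adjusted p = 0.0311) and *Hs6st1* (0.74, SE 0.23, adjusted p = 0.0471) were called. The DESeq2 Wald test called 1 gene of the list there.

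Of 19 other FGF ligands 3 were tested between the groups. *Fgf18* and *Fgf5* were the 2 called in mesothelium, both higher, beside 40.1% of all genes. There *Fgf18* was at 11.4, 16.7, 14.0 and 14.7 CPM (log2 change 4.10, SE 0.28, adjusted p = 6.61e-08) and *Fgf5* at 11.02, 10.3, 10.9 and 7.65 CPM (log2 change 6.20, SE 0.40, adjusted p = 3.99e-08). Neural-like cells also had 2 of the 3 called, both higher, beside 59.1% of all genes, and the DESeq2 Wald test called 3. The first by adjusted p was *Fgf13*, which encodes an intracellular FGF homologue that binds sodium channels. It was at 49.4, 71.1, 71.2 and 82.8 CPM in neural-like cells (log2 change 3.92, SE 0.15, adjusted p = 2.76e-11). Neither edgeR nor the DESeq2 Wald test called any of these ligands or of 8 adaptors between the regions, with 1 of 13 and 1 of 31 tests at an unadjusted p under 0.05. Over all genes edgeR called 0.31% to 4.48% between the regions, depending on the group. Of the 8 adaptors, which link the receptors to Ras, 2 were called in mesothelium against other mesenchyme, beside 40.1% of all genes. These were *Cbl* (-0.48, SE 0.11, adjusted p = 0.00375) and *Frs3* (-1.18, SE 0.38, adjusted p = 0.0228), both lower, and the DESeq2 Wald test called 1. In neural-like cells 4 of the 8 were called, beside 59.1% of all genes, and the DESeq2 Wald test called 5. *Grb2*, *Gab1* and *Shc1* were higher there, with log2 changes of 0.46 (SE 0.05), 0.56 (SE 0.11) and 0.47 (SE 0.15), and *Frs2* was lower (-0.84, SE 0.13). Of 4 other receptors and co-receptors *Fgfrl1*, a receptor without a kinase domain, was the 1 tested. It was called only as lower in neural-like cells (-0.85, SE 0.11, adjusted p = 7.70e-06), beside 59.1% of all genes. Between the regions the dissociation list had 0 calls in other mesenchyme, smooth muscle and neural-like cells (3, 4 and 5 of 10 at an unadjusted p under 0.05, and 2, 1 and 1 calls by the DESeq2 Wald test) and 4 of 10 in mesothelium (beside 1.22% of all genes), all higher in LI: *Jun* (-1.18, adjusted p = 0.00863), *Ier2* (-1.20, adjusted p = 0.0204), *Dusp1* (-1.17, adjusted p = 0.0237) and *Egr1* (-0.995, adjusted p = 0.0254). Against other mesenchyme 1 of the 10 was called in smooth muscle (*Dusp1*, -1.02, adjusted p = 0.00434, beside 9.37% of all genes), 7 in mesothelium (beside 40.1%), 4 of them higher with *Atf3* leading (3.02, adjusted p = 5.75e-07), and 8 in neural-like cells (beside 59.1%), all lower with *Fosb* leading (-4.04, adjusted p = 2.31e-09).

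Genes with the pattern most like each member were sought by Pearson's r of log2(CPM + 5) over the 41 sums of a cluster in a library with at least 20 cells, among the 6560 genes with a mean above 20 CPM. These sums share libraries and clusters, so the values are descriptions. The 2 most alike were *Hoxa9* (r = 0.88) and *Hoxa11* (r = 0.88) for *Fgf10*, *Tmem98* (r = 0.88) and *Podxl* (r = 0.88) for *Fgf9*, and *Ntf3* (r = 0.94) and *Synpo2* (r = 0.94) for *Fgfr2*. They were *Elk3* (r = 0.86) and *Tcf7l2* (r = 0.84) for *Fgfr1*, and *Bmp1* (r = 0.80) and *Ext1* (r = 0.73) for *Fgfr3*. For *Spry1* they were *Ccdc6* (r = 0.77) and *2410004B18Rik* (r = 0.74), for *Spry2* *Snhg6* (r = 0.73) and *Marcks* (r = 0.72), and for *Spry4* *Spred2* (r = 0.73) and *Ptpn9* (r = 0.71). *Etv5* was most like *Eif1ad* (r = 0.84) and *Trim71* (r = 0.82). For *Fgf7*, at the lowest level of all, r reached only 0.53 with *Tfrc* and 0.42 with *Me2*.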

How the data were processed

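The authors aligned reads to mm10 and counted UMIs with Cell Ranger 3.1.0, per the labels and file headers, and they deposited raw UMI counts per gene and cell barcode, unnormalized. Titles gave region and replicate, since other labels name adult or colonic tissue. Libraries used a 3′ or a 5′ kit, which was not given per library in the sources used here.

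Cells with at least 1000 genes and under 10% mitochondrial UMIs were kept. Doublets were scored with Scrublet (scanpy 1.11.5), whose threshold marked 1 to 6 cells a library, so the highest scores were removed at 0.8% per 1000 cells. Libraries were integrated in Seurat 5.3.0 (2000 features, less *Hox* and listed genes, 1948 used), S and G2M scores were removed by regression, and Louvain clusters were drawn at resolution 0.3 on 30 components. A cluster took a name when 3 of its 10 leading genes were markers of 1 type. Without a marker of another type there it was other mesenchyme if 3 fibroblast (FB) markers were in 10% or more of its cells, a rule set after the clusters were seen. Counts were summed per library and group and tested with edgeR 4.0.16 (TMM, default filter). Comparisons between groups and interactions used library as a block. SE is the absolute log2 change over the square root of F. DESeq2 1.42.0 was an alternative. Fits were also run on counts simulated at a fixed dispersion, without the shared deviation of same-numbered libraries. This does not show how the fits behave at the spread of these libraries. Replicates differed beyond sampling noise (chi-square per degree of freedom 3.00 to 32.2). Positions are from GENCODE M21 of the same build.

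All 10 members were reported in every comparison, of other lists up to 6 called genes with the smallest adjusted p per comparison, and 2 most alike genes per member. *Etv4*, *Upk3b*, *Podxl*, *Muc16*, *Pitx1* and *Ctbp2*, and other called adaptor, receptor and heparan sulfate genes, were added after values were seen. Members and lists were chosen with earlier results of these data known.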

Additional observations from a re-analysis of the deposited data

Results flagged for a closer look

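A pair of members had an SI over LI change that differed between mesothelium and other mesenchyme by the interaction test of edgeR. For *Fgf9* the difference was 2.27 on the log2 scale (adjusted p = 0.00578): mesothelium held 161 and 188 CPM in LI and 172 and 136 CPM in SI, whereas other mesenchyme held 25.3 and 19.8 CPM in LI and 6.94 and 1.29 CPM in SI. Its value ran from 1.62 to 3.64 over the alternatives, of which 10 of 12 kept the call. For *Fgfr2* the difference was -1.195 (adjusted p = 0.034), with 20.03, 29.3, 19 and 12.1 CPM in mesothelium and 50.7, 88.6, 90.4 and 109 CPM in other mesenchyme. It ran from -1.78 to -0.82, and 8 of 12 alternatives kept the call.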

How the results depend on the processing

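The number of members called moved with the processing, while the direction of every called member held under all alternatives run, and no call turned its sign. Of 1107 single-gene values under alternatives, 1018 stayed on the same side of the threshold, 42 calls were lost, 47 were gained and 39 uncalled values changed sign. Of 136 alternatives for the counts and the share, 103 stayed within the limits set for them. Without the filter on low counts the counts of called members were 5 in other mesenchyme, 5 in smooth muscle, 2 in mesothelium and 1 in neural-like cells, and 4 in the interaction of smooth muscle and 1 in that of neural-like cells. With the unnamed clusters included, other mesenchyme had 1 call, and clusters 4 and 6 tested alone had 1 and 0. In G1-scored cells smooth muscle had 0 calls, its interaction 1 and that of neural-like cells 1. Resolution 0.5 left 1 call in smooth muscle (*Fgf10*). Sums thinned to equal totals gave 1 call in the interaction of smooth muscle and 1 in that of neural-like cells, and the DESeq2 Wald test 1 in that of mesothelium. Without library as a block smooth muscle against other mesenchyme had 0. The cause of these moves was not tested.

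With replicate number as a block, calls between the regions rose to 5 in other mesenchyme (adding *Fgfr2* and *Spry1*), 5 in smooth muscle (adding *Fgf9*, *Spry1* and *Spry4*), 3 in mesothelium (adding *Spry4* and *Etv5*) and 1 in neural-like cells (*Spry1*), while those over all genes rose to 1615, 814, 732 and 408. Same-numbered libraries deviated together (r from 0.37 to 0.51 over genes). With only 2 pairs and no label saying what a number marks, they share a number and the pairing is a hint from the data.

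When each library was left out in turn, the counts ran from 2 to 6 in other mesenchyme, 2 to 5 in smooth muscle, 1 to 2 in mesothelium and 0 to 3 in neural-like cells. The lone library of a region is then assumed to vary like the others. Against other mesenchyme they ran from 2 to 5 in smooth muscle, 6 to 7 in mesothelium and 6 to 7 in neural-like cells, and in the interactions from 0 to 0, 0 to 2 and 0 to 1. The excess of LI over SI cells of other mesenchyme with an *Fgf10* UMI was 8.34 percentage points at 3000 UMIs per cell, 6.42 at 2000 and 15.7 without thinning, and ran from 7.55 to 9.13 when a library was left out.

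Over all genes the calls between the regions were 603 in other mesenchyme (43 to 2262 over the alternatives), 165 in smooth muscle (136 to 1286), 130 in mesothelium (63 to 979) and 35 in neural-like cells (0 to 1473), each highest without LI replicate 2. Against other mesenchyme they were 1167 (250 to 1518) in smooth muscle, 4998 (2954 to 5271) in mesothelium and 7362 (5250 to 7909) in neural-like cells, and in the interactions 65 (6 to 374), 283 (57 to 813) and 1635 (428 to 2022). Depth limits most what can be said of *Fgf7*, *Fgfr3*, and *Fgf10* and *Etv5* in SI mesothelium, where few UMIs were read. The kit used for each library was not given in the sources used here, so a kit effect cannot be told apart.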

Other observations

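The remaining clusters without a name also carried FGF pathway transcripts. In cluster 8 (385 cells, led by *Foxd1*, *Shisa3* and *Kctd12*) *Fgf9* was at 10.98 and 2.09 CPM in LI and at 16.4 and 19.2 CPM in SI, on 4 and 2 UMIs in LI, and *Fgf10* was at 30.2, 18.8, 3.27 and 11.2 CPM. SI replicate 1 held only 22 cells of this cluster, and no test was made in it. Mesothelial markers were at 56.3 to 107 CPM in LI and 148 to 481 CPM in SI, gastric markers at 33.4 to 43.9 and 150.1 to 331 CPM, and splenopancreatic markers at 173 to 274 and 15.2 to 19.6 CPM in this cluster, and urogenital markers reached 419 CPM in 1 SI library and 2.09 CPM or less in the other libraries. Their part in these values was not tested. In cluster 6, *Fgfr2* was at 5.42, 12.8, 28.8 and 10.7 CPM, below other mesenchyme in every library, while *Fgfr1* was at 63.7, 97.7, 77.0 and 104 CPM. Cluster 7, led by *Foxd3* and *Sox10*, held *Spry2* at 30.1, 109, 57.7 and 110 CPM, and cluster 9, led by neuronal genes, at 21.5, 33.6, 23.5 and 37.6 CPM.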
